A study of Ovis aries with 7 samples.

Results

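The carnitine shuttle carries long-chain fatty acids into mitochondria. CPT1 enzymes on the outer membrane join the fatty acyl group to carnitine, the carrier SLC25A20 takes the acylcarnitine across the inner membrane in exchange for free carnitine, and CPT2 on the inner membrane hands the acyl group back to coenzyme A for beta-oxidation. CRAT does the same kind of transfer with acetyl and other short acyl groups, and CPT1C is a brain form of CPT1 that sits mainly in the endoplasmic reticulum and has little catalytic activity. In brain, fatty acid oxidation is usually placed in astrocytes rather than in neurons.

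The results concern 5 genes, CPT2, CPT1A, CPT1C, SLC25A20 and CRAT, out of 26479 features counted in single nuclei of sheep striatum. They were found by symbol, and they were selected on an earlier result of the same data, a lower CPT2 in OVT73 oligodendrocyte precursor cells (OPCs) and oligodendrocytes. That difference is therefore described here without a test, as is CPT2 in the sum of all nuclei. Tests between the groups are given for the other 4 genes in every cell class and for CPT2 in the 6 classes that the selection did not use.

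OVT73 sheep carry a full-length human huntingtin cDNA with an expanded CAG repeat behind a human huntingtin promoter segment, and serve as a model of Huntington's disease with low transgene expression. Nuclei came from frozen striatum of 12 sheep aged 5 years, 6 OVT73 and 6 controls without the transgene. They were sequenced in 7 libraries, of which the 3 OVT73 libraries (3, 5 and 7) and control libraries 1 and 2 each pooled 2 sheep and control libraries 4 and 6 each held 1 sheep. The library was the replicate throughout, and the sheep within a pooled library were not separated here.

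After filtering, 32599 nuclei remained, with 3102 to 4134 nuclei and 19302522 to 25449755 UMIs in a control library and 4037 to 8340 nuclei and 26020719 to 65941721 UMIs in an OVT73 library. The median UMI count per nucleus was also higher in OVT73, at 2221 to 2562 against 1860 to 2170. The human HTT feature that the authors added to the annotation collected 25, 61 and 322 UMIs in OVT73 libraries 3, 5 and 7, and 4, 6, 2 and 1 in controls 1, 2, 4 and 6. Among the barcode sequences of the nuclei kept, 143 nuclei shared theirs with a nucleus of another library. Nuclei were clustered and clusters named from marker genes, which gave 12 named classes holding 88.0% of the nuclei. The 8 classes with at least 10 nuclei in every library were compared: oligodendrocyte-like (15150 nuclei), OPC-like (2924), microglia-like (2777), D1 medium spiny neuron (MSN)-like (2591), D2 MSN-like (2077), neuroblast-like (1315), astrocyte-like (933) and PV/Th interneuron-like (661).

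Across these classes CPT2 (ENSOARG00020005466) was highest in glia. Levels are given as counts per 1000000 UMIs of the class (CPM), averaged over the 7 libraries. Astrocyte-like nuclei held 27.4 ± 9.08 CPM of CPT2 (SD, n = 7), oligodendrocyte-like nuclei 23.0 ± 8.05, OPC-like nuclei 20.8 ± 12.2 and microglia-like nuclei 13.4 ± 7.93. The oligodendrocyte-like and OPC-like means hold the OVT73 values that chose the genes. In control libraries alone the means were 33.15 CPM in astrocyte-like, 29.3 in oligodendrocyte-like and 30.3 in OPC-like nuclei. Control library 1 held more in OPC-like than in astrocyte-like nuclei, at 34.2 against 25.6 CPM. As a part of their UMIs neurons held far less, with 3.94 ± 1.57 CPM in PV/Th interneuron-like nuclei and 2.63 ± 1.08 and 2.36 ± 0.980 in the D1 and D2 MSN-like classes. Per nucleus this did not hold, since the median depth was 22383 UMIs in D1 MSN-like and 1768 in oligodendrocyte-like nuclei. A CPT2 UMI was found in 7.19% of control and 4.49% of OVT73 D1 MSN-like nuclei (means of libraries). In oligodendrocyte-like nuclei the means were 4.93% and 2.94%. The highest library of either MSN class reached 4.31 CPM, below the lowest library of the OPC-like class at 7.03, of the oligodendrocyte-like class at 11.9 and of the astrocyte-like class at 15.2. Microglia-like nuclei were not apart from neurons in this way. Their lowest library held 4.155 CPM, and the highest PV/Th interneuron-like library held 5.62. Neuroblast-like nuclei gave no stable level, since CPT2 ranged from 0 to 64.4 CPM on 35 UMIs in all. Among the small classes, CPT2 had 4 UMIs in SST/NPY interneuron-like, 5 in cholinergic interneuron-like, 2 in mural or fibroblast-like and 0 in endothelial-like nuclei.

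CPT1A (ENSOARG00020016497), the general form of the first enzyme of the shuttle, was also highest in astrocyte-like nuclei, with 45.8 ± 11.8 CPM. OPC-like nuclei followed with 31.3 ± 5.37 and neuroblast-like nuclei with 23.4 ± 11.97. The oligodendrocyte-like class stood at the other end, with 0.454 ± 0.367 CPM from 14 UMIs in 15150 nuclei. CPT1A and CPT2 therefore had different distributions within the oligodendrocyte lineage. In microglia-like nuclei CPT1A had 5 UMIs, and in D1 and D2 MSN-like nuclei its level was 1.52 ± 0.464 and 1.81 ± 0.684 CPM.

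CPT1C (ENSOARG00020010351) followed neurons and OPCs. It reached 68.3 ± 8.29 CPM in OPC-like, 61.8 ± 8.41 and 57.5 ± 8.42 in the D2 and D1 MSN-like classes and 46.9 ± 10.3 in PV/Th interneuron-like nuclei, and was 3.56 ± 1.13 in oligodendrocyte-like nuclei. SLC25A20 (ENSOARG00020022821), the inner membrane carrier, was highest in astrocyte-like nuclei at 32.1 ± 10.7 CPM, followed by microglia-like nuclei at 16.2 ± 4.35 and oligodendrocyte-like nuclei at 10.5 ± 2.48, and was 5.44 ± 1.01 in D1 MSN-like nuclei. CRAT (ENSOARG00020002283) was sparse everywhere, with 6.97 ± 4.24 CPM in astrocyte-like nuclei and 415 UMIs over all nuclei.

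The order of the classes was tested between neighbours, with an exact paired sign-flip test of log2(CPM + 1) over the 7 libraries. Of 35 neighbouring pairs for the 5 genes, 0 passed after Benjamini-Hochberg adjustment and 9 had an unadjusted p under 0.05. Of these 9 pairs, 4 belonged to CPT1C, 3 to SLC25A20 and 2 to CPT1A. With 35 pairs, a pair could pass only if many pairs were at or near the smallest p possible, so 0 passing does not show equal levels. The smallest p that 7 libraries allow is 0.0156. It was reached by 5 pairs (exact p = 0.0156, adjusted 0.109, higher in 7 of 7 libraries in each). For SLC25A20 these were astrocyte-like over microglia-like and PV/Th interneuron-like over D2 MSN-like nuclei, and for CPT1C astrocyte-like over microglia-like, D2 over D1 MSN-like and D1 MSN-like over PV/Th interneuron-like nuclei. For CPT2, 0 of 7 pairs had an unadjusted p under 0.05. The CPT2 pairs with OPC-like or oligodendrocyte-like nuclei hold the values that chose the genes, so nothing is read from their tests. Astrocyte-like nuclei exceeded oligodendrocyte-like nuclei by 0.26 ± 0.27 (log2, SD) in 5 of 7 libraries, among them all 3 OVT73 libraries. In control libraries 1 and 2 they lay below, at 25.6 and 29.2 CPM against 28.4 and 29.9.

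**Figure D1:**
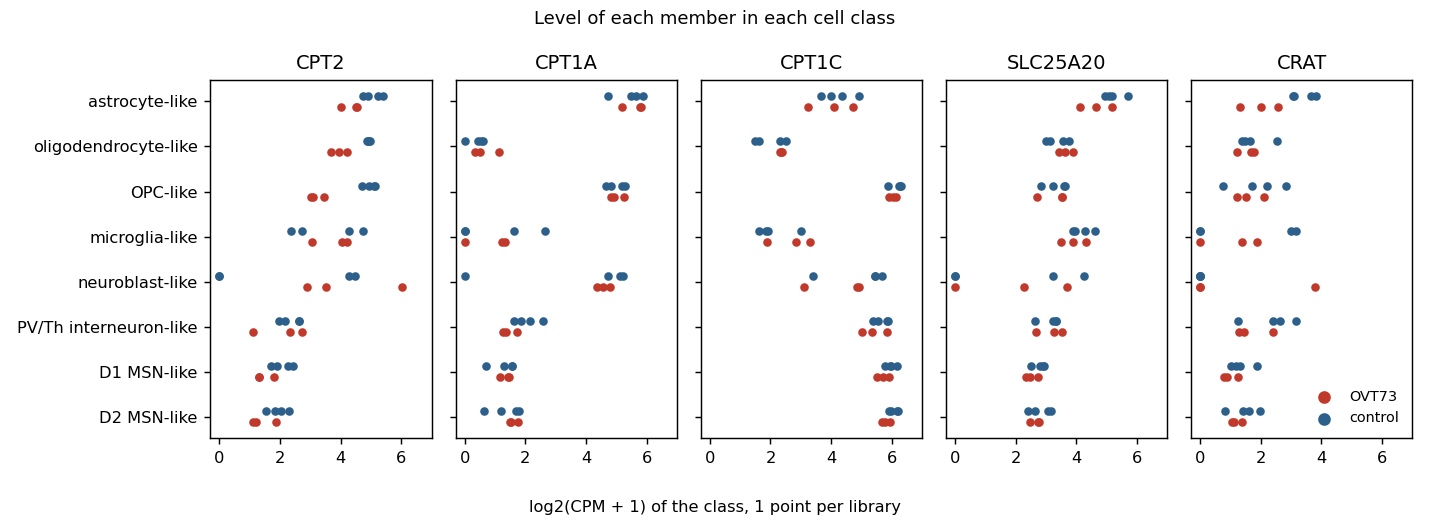
Level of each gene (horizontal axis, log2(CPM + 1)) in each cell class (vertical axis), with 1 point for each of 3 OVT73 (red) and 4 control (blue) libraries. By the mean over libraries, CPT2 and SLC25A20 are highest in astrocyte-like nuclei and CPT1C in OPC-like nuclei and neurons. The CPT2 means of OPC-like and oligodendrocyte-like nuclei hold the OVT73 values that chose the genes. CPT1A is near 0 in oligodendrocyte-like nuclei, with a mean of 0.454 CPM.

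In the values that chose the genes, CPT2 was lower in OVT73 OPC-like nuclei. Values between the groups are normalized CPM, scaled by edgeR's TMM factors. In OPC-like nuclei of controls 1, 2, 4 and 6 CPT2 stood at 32.3, 29.1, 33.7 and 24.6 normalized CPM, from 28, 41, 43 and 36 UMIs. OVT73 libraries 3, 5 and 7 held 10.2, 7.63 and 7.81 normalized CPM, from 16, 16 and 23 UMIs. All OVT73 libraries lay below all control libraries, and the mean was 8.53 ± 1.41 (SD, n = 3) against 29.9 ± 4.03 (SD, n = 4), a log2 fold change of -1.82 ± 0.25 (SE) or 3.52-fold more in control. Over the whole class, an adjusted p under 0.05 was reached by 0.0111% of 9004 genes in edgeR. This was 1 gene, CPT2 itself, so the share restates the selection and is no background for CPT2. The threshold was reached by 0 genes when control library 1, control library 4, OVT73 library 3 or OVT73 library 5 was left out. The libraries did not overlap for 7.51% of genes, 3.32% with OVT73 lower. The shares without overlap are printed as background, and nothing is read for CPT2 from them or from the counts before them. In the order by p from which the selection came, the genes just outside CPT2 were PLCG2, TMPRSS11A and ENSOARG00020009972. Their log2 fold changes were -0.77 ± 0.13, -1.405 ± 0.27 and -3.355 ± 0.49, and nothing is read for CPT2 from this order either.

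In oligodendrocyte-like nuclei the same libraries gave 26.7, 29.4, 30.6 and 28.9 normalized CPM in controls 1, 2, 4 and 6, and 17.7, 15.3 and 12.1 in OVT73 libraries 3, 5 and 7. The groups again did not overlap. The means were 15.1 ± 2.79 (SD, n = 3) and 28.9 ± 1.66 (SD, n = 4), a log2 fold change of -0.96 ± 0.18 (SE), from 229 and 434 UMIs. Here 0% of 10517 genes passed the adjusted threshold and the libraries did not overlap for 6.55%, 3.16% with OVT73 lower. As unscaled CPM, the control mean was 30.3 in OPC-like and 29.3 in oligodendrocyte-like nuclei, and the OVT73 mean was 8.14 and 14.6. Over all nuclei CPT2 was also lower in OVT73, at 5.41 ± 1.84 normalized CPM in OVT73 and 10.5 ± 1.67 in control (log2 fold change -0.96 ± 0.24). This sum holds the OPC-like and oligodendrocyte-like classes, with 203 and 663 of its 1556 CPT2 UMIs. Class proportions also differed between libraries. Oligodendrocyte-like nuclei held the largest part in control library 4 (4387019 of 19302522 UMIs) and the smallest in OVT73 library 5 (3800539 of 37951818). The groups overlapped in this part, which was larger in OVT73 library 7 (9717138 of 65941721) than in control library 6 (2864049 of 21040018). The part of class proportions was not tested. For all nuclei, 0% of 16061 genes passed the adjusted threshold, and the libraries did not overlap for 6.33%, 3.26% with OVT73 lower.

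**Figure D2:**
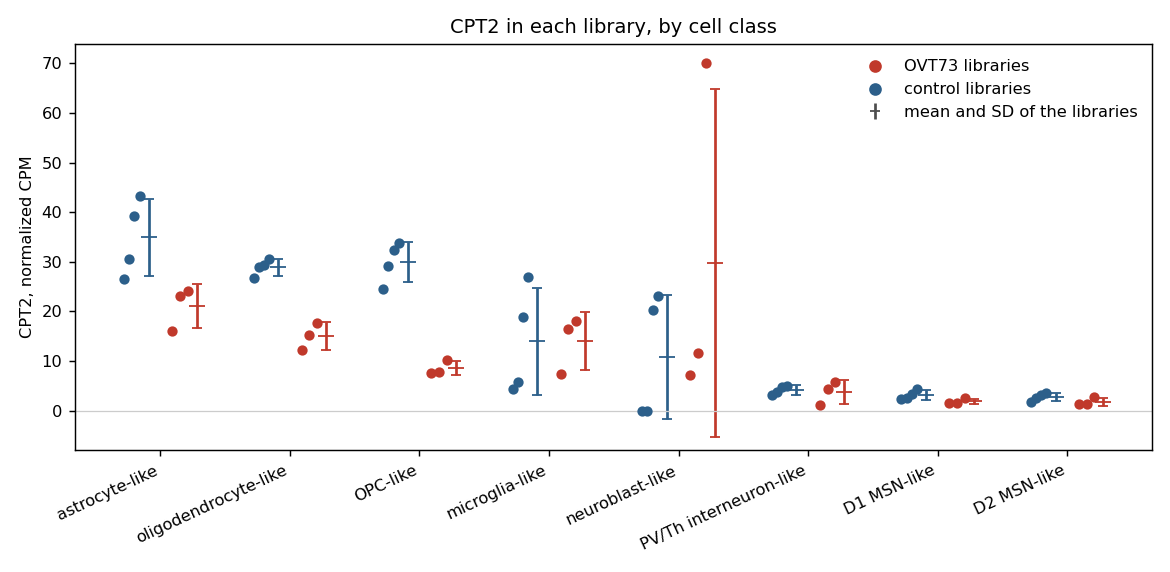
CPT2 in normalized CPM (vertical axis) by cell class, ordered by mean log2 level, with 1 point per library and the mean and SD of 4 control (blue) and 3 OVT73 (red) libraries beside the points. In OPC-like nuclei the OVT73 libraries lie between 7.63 and 10.2 and the control libraries between 24.6 and 33.7, and groups also stand apart in oligodendrocyte-like and astrocyte-like nuclei.

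The oligodendrocyte-like class was made of 4 clusters, and the CPT2 difference was not of the same size in each. In cluster 7, led by MMRN1 and ENPP6 (ENPP6 marks newly formed oligodendrocytes), CPT2 was 13.8 ± 2.86 CPM in OVT73 and 42.6 ± 8.33 in control libraries. In cluster 1, led by WDR72 and GHR, it was 14.4 ± 3.68 and 33.7 ± 2.31. The OVT73 and control libraries did not overlap in these clusters. They overlapped in cluster 0, led by OPALIN, with 13.5 to 24.0 CPM in OVT73 and 20.9 to 33.5 in control libraries, and in cluster 2, led by IL1RAPL2 and ASPA, with 6.91 to 14.9 and 12.6 to 21.6. Whether the clusters differ in this was not tested, since the clusters were formed from the same nuclei and the class was chosen for the difference. The share of the class in cluster 7 was 8.71% to 20.03% in control and 6.78% to 14.04% in OVT73 libraries.

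**Figure D3:**
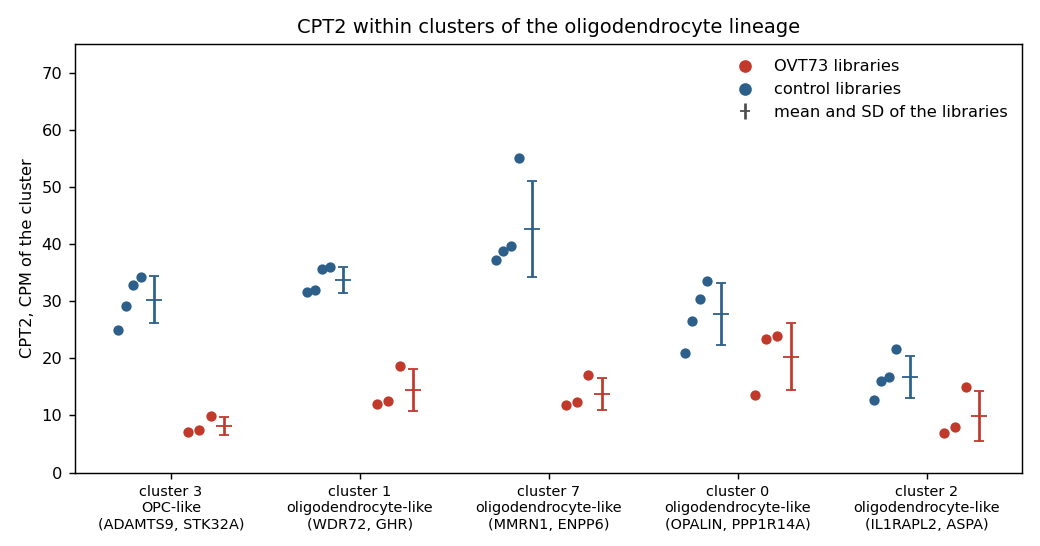
CPT2 in CPM of the cluster (vertical axis) in the OPC-like cluster and the 4 oligodendrocyte-like clusters, each named with 2 leading genes. Points are libraries and bars the mean and SD; OVT73 (red) lies below control (blue) without overlap in clusters 3, 1 and 7, and the groups overlap in clusters 0 and 2.

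Few nuclei held a CPT2 UMI at all. In OPC-like nuclei the share was 7.35%, 6.49%, 12.3% and 9.22% in controls 1, 2, 4 and 6, and 3.85%, 2.64% and 3.83% in OVT73 libraries 3, 5 and 7. The shares of the groups did not overlap, but single libraries were imprecise: the exact 95% binomial intervals of OVT73 libraries 3 (2.21% to 6.17%) and 7 (2.41% to 5.74%) overlapped those of control libraries 1 (4.55% to 11.1%) and 2 (4.32% to 9.30%), and that of OVT73 library 5 (1.48% to 4.31%) overlapped none of the control intervals. Nuclei with 2 or more CPT2 UMIs numbered 23 of 1364 in control and 2 of 1560 in OVT73, counts that pool the libraries of a group. By library, controls 1, 2, 4 and 6 held 28 UMIs in 20 nuclei, 41 in 27, 43 in 39 and 36 in 33. OVT73 libraries 3, 5 and 7 held 16 in 16, 16 in 15 and 23 in 22. UMIs thus exceeded nuclei most in control libraries 1 and 2. The median depth of OPC-like nuclei was 3514 to 4627 UMIs in OVT73 libraries and 2584 to 3879 in control libraries, and these ranges overlapped. Control library 4, with the highest share, was deeper than OVT73 libraries 3 and 5. The part of depth in the unthinned shares was not tested.

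With every nucleus thinned to 1000 UMIs, which left out 27 OVT73 and 14 control nuclei, the share in OPC-like nuclei was 0.550% ± 0.581 (SD, n = 3) for OVT73 and 3.03% ± 0.654 (SD, n = 4) for the controls, without overlap. Thinning was 1 random draw, and the spread between draws was not measured. The OVT73 share rested on 1 of 394, 1 of 565 and 7 of 574 nuclei in libraries 3, 5 and 7. In a separate draw at 500 UMIs these libraries held 2 of 416, 4 of 569 and 2 of 575. In oligodendrocyte-like nuclei the share at 1000 UMIs was 1.45% ± 0.205 and 2.85% ± 0.249, again without overlap, after 503 OVT73 and 1222 control nuclei were left out. The unthinned shares there were 2.94% ± 0.480 and 4.93% ± 0.399. In astrocyte-like nuclei the thinned shares overlapped, at 2.14% ± 1.01 in OVT73 and 2.41% ± 2.05 in control (exact permutation test, two-sided, p = 0.943), and control library 4 had 0 of 38 nuclei with a UMI (exact 95% interval up to 9.25%). Free RNA can add UMIs to nuclei that do not make a transcript. For comparison, unthinned microglia-like nuclei had a CPT2 share of 1.96% ± 0.593 in OVT73 and 1.70% ± 1.11 in control at median depths of 1305 to 1660 and 1128 to 1530 UMIs. At 1000 UMIs the share was 1.29% ± 0.156 and 1.25% ± 1.21 in microglia-like nuclei and 0.114% ± 0.197 and 0.513% ± 0.460 in D1 MSN-like nuclei. The thinned OVT73 share in OPC-like nuclei, from 9 nuclei with a UMI in 1 draw, lay between those of these classes. The part of free RNA in that share was not tested. Intervals cover counting error only.

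**Figure D4:**
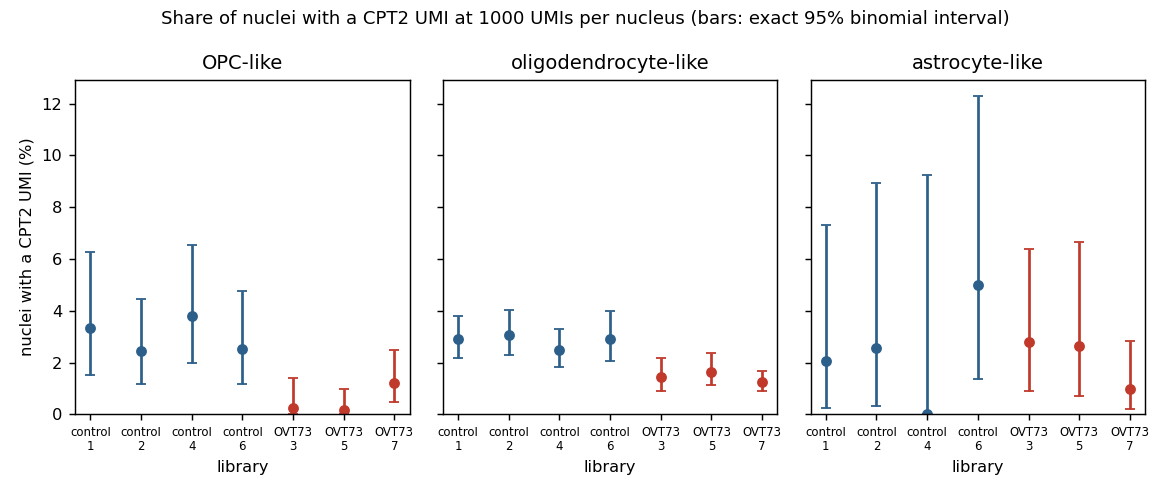
Percent of nuclei with a CPT2 UMI (vertical axis) after 1 random thinning to 1000 UMIs per nucleus, in each control (blue) and OVT73 (red) library, with exact 95% binomial intervals. The OVT73 libraries reach at most 1.22% in OPC-like nuclei, where the control libraries start at 2.44%, and in astrocyte-like nuclei the libraries overlap.

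In the classes that the selection did not use, CPT2 did not pass a test. Astrocyte-like nuclei had the highest mean CPT2 over the 7 libraries. There controls 1, 2, 4 and 6 held 26.6, 30.5, 39.3 and 43.3 normalized CPM and the OVT73 libraries 3, 5 and 7 held 23.1, 24.0 and 16.1. The groups did not overlap, as for 4.96% of genes in this class and 2.27% with OVT73 lower, and the log2 fold change was -0.71 ± 0.35 (SE) with an adjusted p of 1 from edgeR's quasi-likelihood test (0% of 6266 genes passed). The exact permutation test over libraries gave p = 0.0571, where the smallest p it allows is 0.0286. These values rest on 58 OVT73 and 36 control UMIs, with 5 UMIs in control library 4. The groups overlapped when clusters were made at resolution 0.5 or classes were set nucleus by nucleus.

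Among D1 MSN-like nuclei CPT2 was 3.45, 2.25, 4.33 and 2.61 normalized CPM in controls 1, 2, 4 and 6, and 2.47, 1.59 and 1.53 in OVT73 libraries 3, 5 and 7. OVT73 library 3 lay above control library 2, so the groups overlapped (log2 fold change -0.76 ± 0.36, edgeR adjusted p = 0.949). In D2 MSN-like nuclei the values were 3.60, 3.10, 2.53 and 1.80 in controls and 2.71, 1.26 and 1.33 in OVT73, also with overlap (log2 fold change -0.70 ± 0.41, edgeR adjusted p = 0.873). The libraries did not overlap for 5.28% of genes in the D1 and 6.2% in the D2 class, and 0% of genes passed the adjusted threshold in either.

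CPT2 was too low for the fit in the last 3 classes. In microglia-like nuclei it was 18.8, 27.0, 4.36 and 5.71 normalized CPM in controls 1, 2, 4 and 6, and 18.1, 16.5 and 7.44 in OVT73 libraries 3, 5 and 7. The means were nearly equal, at 13.96 ± 10.8 in control and 14.03 ± 5.77 in OVT73 (exact permutation test, p = 0.771). In PV/Th interneuron-like nuclei the values were 3.10, 5.06, 3.68 and 4.81 in controls and 5.80, 4.27 and 1.15 in OVT73 (exact permutation test, p = 0.743). In neuroblast-like nuclei they were 0, 23.1, 0 and 20.2 in controls and 70.1, 7.22 and 11.7 in OVT73 (exact permutation test, p = 0.286). The shares of genes without overlap were 5.52% in microglia-like, 3.31% in PV/Th interneuron-like and 5.33% in neuroblast-like nuclei, and 0% passed the adjusted threshold in each. With the 6 classes summed per library, a sum added after the values were seen, CPT2 was 3.35 ± 1.56 normalized CPM in OVT73 and 3.93 ± 0.381 in control (log2 fold change -0.25 ± 0.31, edgeR adjusted p = 0.959). In that sum the libraries did not overlap for 5.04% of genes and 0% passed. The classes in it that could be fitted had log2 fold changes of -0.76 (D1 MSN-like), -0.70 (D2 MSN-like) and -0.71 (astrocyte-like). The sum also mixes classes in unlike proportions. Astrocyte-like nuclei, with the highest CPT2 level, numbered 638 in OVT73 and 295 in control, and D1 MSN-like nuclei 1490 and 1101. The part of this mix in the sum was not tested. Without OVT73 library 3 the log2 fold change of the sum was -0.68, and without OVT73 library 7 it was -0.02.

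No other member of the shuttle passed a test across genes. Of 21 fits of a member in a class, leaving out CPT2 in the 2 classes of the selection, 0 had an adjusted p under 0.05 in edgeR and 0 an unadjusted p under 0.05, and the lowest adjusted p was 0.873. DESeq2 also called 0 of 21, with 0 at an unadjusted p under 0.05. Of 38 exact permutation tests, which were not adjusted for their number, 1 had a p under 0.05.

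CPT1A, which acts directly before the carrier, had nearly equal means in OPC-like nuclei. There it held 32.7 ± 4.66 normalized CPM in OVT73 and 30.9 ± 5.73 in control libraries (log2 fold change 0.08 ± 0.20, edgeR adjusted p = 0.952). In astrocyte-like nuclei, its highest class, the values were 26.6, 61.1, 47.2 and 51.2 normalized CPM in controls 1, 2, 4 and 6, and 56.6, 38.4 and 58.6 in OVT73 libraries 3, 5 and 7. The groups overlapped across almost the whole range (log2 fold change 0.21 ± 0.31, edgeR adjusted p = 1). The MSN classes gave log2 fold changes of 0.18 ± 0.43 and 0.36 ± 0.46.

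CPT1C was highest in OPC-like nuclei, where controls 1, 2, 4 and 6 held 54.2, 75.3, 76.0 and 78.0 normalized CPM and OVT73 libraries 3, 5 and 7 held 66.0, 64.4 and 71.6. Control library 1 was the lowest of all, and the OVT73 values lay between it and the other controls (log2 fold change -0.08 ± 0.16, edgeR adjusted p = 0.929). CPT1C passed the filter in 6 classes, with log2 fold changes from -0.68 ± 0.56 in neuroblast-like to 0.43 ± 0.38 in oligodendrocyte-like nuclei.

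SLC25A20 was highest in astrocyte-like nuclei, at 36.2, 33.9, 55.1 and 31.5 normalized CPM in controls 1, 2, 4 and 6, and at 25.7, 38.4 and 17.4 in OVT73 libraries 3, 5 and 7. OVT73 library 5 lay above 3 of the 4 controls (log2 fold change -0.53 ± 0.36, edgeR adjusted p = 1). In the classes where CPT2 was lower, SLC25A20 was 9.34 ± 3.15 and 9.18 ± 2.57 in OPC-like nuclei (log2 fold change 0.02 ± 0.36) and 12.1 ± 2.65 and 9.36 ± 2.39 in oligodendrocyte-like nuclei (log2 fold change 0.34 ± 0.26).

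CRAT could be fitted only in the MSN classes, with a log2 fold change of -0.72 ± 0.46 for the D1 and -0.53 ± 0.45 for the D2 neurons (edgeR adjusted p = 0.949 and 0.886). In astrocyte-like nuclei, its highest class, CRAT was 12.1, 13.6, 7.87 and 7.88 normalized CPM in controls 1, 2, 4 and 6, and 5.14, 1.60 and 3.22 in OVT73 libraries 3, 5 and 7. No OVT73 library reached a control library, as for 4.96% of the genes that passed the filter in this class, 2.27% with OVT73 lower. This was the 1 of 38 exact permutation tests with the smallest p the design allows (p = 0.0286, not adjusted for the number of tests). The counts behind it were 12 UMIs in control and 10 in OVT73 libraries, with 1 UMI each in control library 4 and OVT73 library 5, too few for the fit across genes.

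**Figure D5:**
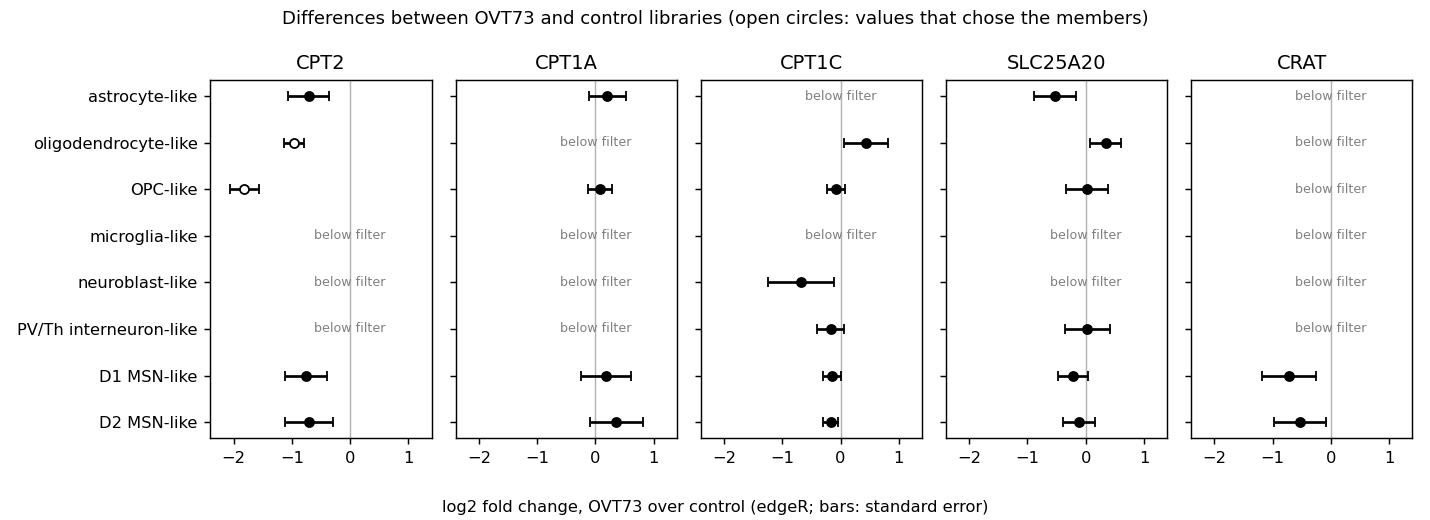
Log2 fold change of OVT73 over control (horizontal axis, edgeR) with its standard error, for each gene in each cell class (vertical axis). CPT2 in OPC-like (-1.82) and oligodendrocyte-like nuclei (-0.96), drawn as open circles, are the values that chose the genes and carry no test, and none of the 21 tested fits had an adjusted p under 0.05.

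The rest of fatty acid metabolism was followed in 6 lists of 57 genes with a feature. In OPC-like nuclei 38 of them passed the filter and 0 had an adjusted p under 0.05, with 20 lower and a median log2 fold change of -0.02, equal to that of all genes (-0.02). In oligodendrocyte-like nuclei 44 passed the filter and 0 passed the adjusted threshold, with 28 lower and a median of -0.06 (all genes -0.02). At an unadjusted p under 0.05, edgeR found 1 of the 38 genes in OPC-like nuclei, beside 603 of all 9004, and 4 of the 44 in oligodendrocyte-like nuclei, beside 548 of all 10517. All of these list genes were lower in OVT73, as were 317 of the 603 and 322 of the 548. Libraries of the groups did not overlap for 1 of the 38 genes, higher in OVT73, beside 7.51% of all genes in OPC-like nuclei. In oligodendrocyte-like nuclei they did not overlap for 1 lower and 2 higher genes of the 44, beside 6.55% of all genes. Whatever their p, 52.7% of all genes were lower in OPC-like and 53.5% in oligodendrocyte-like nuclei.

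Mitochondrial beta-oxidation, the pathway that CPT2 feeds, held 9 genes that passed the filter in OPC-like nuclei, 6 of them higher, with a median log2 fold change of 0.04. HADHB, a subunit of the trifunctional protein, was 52.4 ± 2.88 normalized CPM in OVT73 and 44.1 ± 2.49 in control, with libraries that did not overlap (log2 fold change 0.25 ± 0.16, edgeR adjusted p = 0.763). HADH, the short-chain hydroxyacyl-CoA dehydrogenase, had a log2 fold change of 0.30 ± 0.23. In oligodendrocyte-like nuclei 7 of 11 genes of the list were lower, with a median of -0.07. The lowest p values there belonged to ETFDH, which passes electrons from beta-oxidation to the respiratory chain (log2 fold change -0.21 ± 0.15), and ECHS1, an enoyl-CoA hydratase (-0.40 ± 0.34).

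In the list of carnitine supply and other carnitine genes, 2 genes passed the filter in OPC-like and 4 in oligodendrocyte-like nuclei. All of them had a negative log2 fold change, with a median of -0.39 and -0.04, and 0 passed the adjusted threshold. SLC22A5, the plasma membrane carnitine transporter, was 7.93 ± 1.38 normalized CPM in OVT73 and 12.5 ± 4.54 in control OPC-like nuclei, with overlap (log2 fold change -0.64 ± 0.36, edgeR adjusted p = 0.749). CROT, which makes medium-chain acylcarnitines in peroxisomes, had a log2 fold change of -0.15 ± 0.19 there. In oligodendrocyte-like nuclei the values were -0.48 ± 0.28 for SLC25A29, a basic amino acid carrier of the mitochondrial membrane, and -0.04 ± 0.13 for SLC22A16, a carnitine transporter.

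Among genes of fatty acid uptake and activation, 7 of 8 were lower in oligodendrocyte-like nuclei, with a median of -0.29, and 3 of 7 in OPC-like nuclei, with a median of 0.01. In oligodendrocyte-like nuclei the libraries did not overlap for 0 lower and 1 higher gene of this list, beside 6.55% of all genes. CD36, a fatty acid receptor of the cell surface, was 2.82 ± 1.45 against 5.67 ± 1.58 normalized CPM in oligodendrocyte-like nuclei (log2 fold change -1.07 ± 0.40, edgeR adjusted p = 0.882). SLC27A4, which takes up and activates fatty acids, was 4.58 ± 0.962 against 7.95 ± 2.28 (log2 fold change -0.81 ± 0.31, edgeR adjusted p = 0.882). In both, OVT73 and control libraries overlapped. In OPC-like nuclei FABP3, a fatty acid binding protein, had a log2 fold change of -0.84 ± 0.42 and ACSL3, an acyl-CoA synthetase, -0.32 ± 0.17.

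Of the genes that control fatty acid oxidation, PRKAA1, a catalytic subunit of AMP-activated kinase, had the lowest p in both classes. It was 53.2 ± 11.7 against 69.9 ± 8.17 normalized CPM in OPC-like nuclei (log2 fold change -0.40 ± 0.18, edgeR adjusted p = 0.736) and 57.5 ± 10.9 against 72.5 ± 7.38 in oligodendrocyte-like nuclei, where the libraries did not overlap (log2 fold change -0.35 ± 0.15, edgeR adjusted p = 0.882). PPARA, a nuclear receptor that drives fatty acid oxidation genes, had log2 fold changes of -0.43 ± 0.28 and -0.20 ± 0.17. For peroxisomal beta-oxidation 4 of 7 genes were lower in OPC-like and 6 of 8 in oligodendrocyte-like nuclei. The lowest p values belonged to EHHADH (-0.48 ± 0.30) and ACAA1 (-0.27 ± 0.30), both enzymes of the peroxisomal pathway, in OPC-like nuclei, and to HSD17B4 (0.20 ± 0.12), another enzyme of it, and ABCD3 (0.12 ± 0.11), a peroxisomal membrane transporter, in oligodendrocyte-like nuclei. Of the genes of ketone body and acetyl-CoA use, 5 of 5 were higher in oligodendrocyte-like nuclei. BDH1, the ketone body dehydrogenase, was 14.1 ± 1.24 against 10.7 ± 1.51 normalized CPM there, without overlap (log2 fold change 0.40 ± 0.20, edgeR adjusted p = 0.882). In OPC-like nuclei ACAT1 had a log2 fold change of 0.16 ± 0.15 and ACSS1 -0.23 ± 0.34.

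The genes beside CPT2 were read from the RefSeq order on ARS-UI_Ramb_v3.0, another assembly than the one the counts were made on. Only genes whose symbol occurs once among the features were taken, and others in between were passed over. The words beside, next to and neighbour refer to the genes taken. Of 30 genes beside the 5 members, 15 passed the filter in OPC-like and 19 in oligodendrocyte-like nuclei, and 0 had an adjusted p under 0.05. The nearest gene taken on one side of CPT2 is SLC1A7, a glutamate transporter. It was below the filter in OPC-like nuclei, with 5, 5, 8 and 13 UMIs in controls 1, 2, 4 and 6 and 3, 1 and 0 in OVT73 libraries 3, 5 and 7. As normalized CPM this was 6.12 ± 2.19 against 0.794 ± 0.991, without overlap (exact permutation test, p = 0.0286, the smallest possible). It was not the only neighbour of a member to stand apart there: DOLPP1, next to CRAT and named after its values were seen, was also below the filter, with 18 UMIs and 0.113 ± 0.196 against 3.29 ± 0.862 normalized CPM (exact permutation test, p = 0.0286). These exact tests were run on all 30 neighbours and not adjusted for their number. Among all 19135 genes fitted there without the filter, the libraries stood apart for 430 with OVT73 lower and 740 with OVT73 higher. In that fit, which called 34 of 19135 genes, SLC1A7 had a log2 fold change of -3.09 ± 0.73 and an edgeR adjusted p of 0.0160. DOLPP1 had -3.89 ± 1.08 and an edgeR adjusted p of 0.0994. In oligodendrocyte-like nuclei SLC1A7 overlapped between groups, since OVT73 library 3 held 6.59 normalized CPM against 3.57 to 9.05 in controls while OVT73 libraries 5 and 7 held 0.284 and 1.36 (log2 fold change -1.30 ± 0.74, edgeR adjusted p = 0.882).

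None of the other neighbours of CPT2 passed the test. On the SLC1A7 side, PODN had 1 UMI in OPC-like nuclei, and ZYG11B, a subunit of a ubiquitin ligase, had log2 fold changes of 0.12 ± 0.13 in OPC-like and 0.13 ± 0.12 in oligodendrocyte-like nuclei. On the other side CZIB had -0.21 ± 0.25 and -0.15 ± 0.17. LRP8, a reelin receptor, had -0.06 ± 0.25 in OPC-like nuclei, and GLIS1, a zinc finger factor, had 0.31 ± 0.20 and 0.15 ± 0.16.

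Over 56 sums of 8 classes and 7 libraries, the 5 genes whose log2(CPM + 1) correlated best with that of CPT2, out of 14145, were NAPEPLD (Pearson r = 0.85), JUN (0.82), LCAT (0.82), KCNJ13 (0.79) and NDRG2 (0.79). NAPEPLD makes N-acylethanolamines, LCAT esterifies cholesterol, and NDRG2 is typical of astrocytes. Of the shuttle, SLC25A20 had r = 0.63, CPT1A 0.43, CRAT 0.32 and CPT1C -0.44. The points share libraries and differ widely in depth between classes, so these values only describe the pattern over classes.

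Other measures beside CPT2 also stood apart between the groups. Over all nuclei, the UMI totals and the median UMIs per nucleus given above did. In D1 MSN-like nuclei the summed OPC markers were higher in OVT73, at 1773 to 2104 against 1361 to 1705 normalized CPM. Of the low sums there, ependymal markers were higher (2.955 to 3.415 against 1.948 to 2.792) and mural or fibroblast markers lower (13.25 to 14.8 against 17.87 to 27.05). In D2 MSN-like nuclei the OPC (1737 to 1927 against 1258 to 1700) and interneuron markers (1290 to 1448 against 833.7 to 1075) were higher. The cholinergic interneuron (18.66 to 23.15 against 28.87 to 54.26) and mural or fibroblast markers (12.85 to 14.96 against 19.08 to 21.55) were lower. In OPC-like nuclei the summed OPC markers (10 of 10 detected) were higher in OVT73, at 21760 to 25390 against 18540 to 20540 normalized CPM, and so were MSN markers (10 of 10 detected, 1454 to 1479 against 1190 to 1352). Of the D1 MSN markers 4 of 6 were detected there (42.9 to 54.6 against 38.1 to 89.4, ISL1 and CHRM4 at 0) and of the D2 MSN markers 4 of 5 (5.43 to 8.11 against 4.79 to 11.4, GPR6 at 0), and both sums overlapped between the groups. Oligodendrocyte (9 of 9 detected, 339 to 385 against 266 to 452) and astrocyte markers (7 of 8, 478 to 573 against 428 to 590) overlapped in OPC-like nuclei. In oligodendrocyte-like nuclei all 17 marker sums overlapped between the groups, and in astrocyte-like nuclei only the ependymal sum did not, at 3.20 to 7.72 in OVT73 and 7.88 to 23.6 in control, with FOXJ1 at 0. The median mitochondrial share of OPC-like nuclei was 0.254% to 0.930% in OVT73 and 0.200% to 1.22% in control libraries. The part of these measures in the CPT2 values was not tested. On the log2 scale, CPT2 in OPC-like nuclei was -1.85 with the 5 libraries that pooled 2 sheep each. The direction there followed from the separation of the full set. With 272 nuclei drawn from every library it was -2.17.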

How the data were processed

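Nuclei of sheep striatum were profiled with the 10x Genomics 3' v3.1 kit in 7 libraries. Per the labels, reads were processed with Cell Ranger 7.0.0 and STAR 2.7.2a against Oar_rambouillet_v1.0. The study's mapping summary gives more reads on the transcriptome than on exons, so intronic reads were counted. The deposited values are raw UMI counts per gene and barcode. Barcodes with 200 to 7500 genes and at most 5% mitochondrial UMIs were kept (33957 of 35272), and the 4% of each library with the highest Scrublet scores were removed (1358), since the automatic threshold marked only 129. Clusters (scanpy 1.11.5; Louvain in igraph 0.11.9 at resolution 1.0, on principal components corrected between libraries by the Harmony method) were named "X-like" from marker lists. The naming rule was set after marker profiles were seen and before groups were compared, and 13 clusters stayed unnamed.

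UMIs were summed per library and class and tested with edgeR 4.0.16 (filterByExpr, TMM, robust quasi-likelihood F test, two-sided, Benjamini-Hochberg over all genes of the class, threshold 0.05) and, as an alternative, DESeq2 1.42.0. Exact permutation tests over the 35 choices of 3 of 7 libraries (log2 of normalized CPM + 1) cannot go below p = 0.0286. The fits were tested on simulated data. The members and lists were chosen with earlier results of these data known. Genes were named by rule: the members, the 2 genes of each list with the lowest p in OPC-like and oligodendrocyte-like nuclei, the nearest 3 genes with a feature on each side of CPT2 and the 5 most like CPT2. 1 gene that the rule names is not reported here. PLCG2, TMPRSS11A, ENSOARG00020009972 and DOLPP1 were named after their values were seen. Pooled libraries mix sheep, so p-values measure the spread between libraries.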

Additional observations from a re-analysis of the deposited data

Results flagged for a closer look

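Among the 45 sets of 4 control libraries (5 genes in 8 classes and in all nuclei), 4 held a library whose gap to its nearest neighbour was large for the range of the set by Dixon's criterion. Chance gives about 1 in 20 such sets. They were CPT1C in OPC-like nuclei, low in control library 1 at 54.2 normalized CPM, CPT1C in microglia-like nuclei, high in control library 2 at 7.36 normalized CPM, CPT1C in neuroblast-like nuclei, low in control library 4 at 11.6 normalized CPM, and CRAT in oligodendrocyte-like nuclei, high in control library 2 at 4.67 normalized CPM. The microglia-like value came from 3 UMIs, against 1 UMI each in control libraries 1, 4 and 6. The neuroblast-like value came from 1 UMI in 45 nuclei. CPT2 gave no such set in any class.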

How the results depend on the processing

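CPT2 stayed lower in OVT73 in all 16 alternatives in OPC-like and in oligodendrocyte-like nuclei, the values that chose the genes. The libraries of the groups did not overlap in any of the 15 for which this was read. Groups that stand apart in the full set can hardly overlap once libraries are left out. Those alternatives therefore say little about direction or overlap. In OPC-like nuclei the CPT2 log2 fold change ran from -1.93 to -1.75 when 1 library was left out. Otherwise it ran from -2.17 (equal numbers of nuclei) to -1.68 (classes set nucleus by nucleus). The number of genes with an adjusted p under 0.05 in OPC-like nuclei ran from 0, without control library 1 or 4 or OVT73 library 3 or 5 and with classes set nucleus by nucleus, to 34 without a filter on low counts, with 8 in DESeq2. In oligodendrocyte-like nuclei it was 0 in edgeR with the filter, except for 1 without control library 6, and 1 without a filter and 5 in DESeq2. The CPT2 log2 fold change in oligodendrocyte-like nuclei ran from -1.09 to -0.80 with 1 library left out. Over all nuclei it ran from -1.26 (without OVT73 library 3) to -0.82. In D1 MSN-like, D2 MSN-like and astrocyte-like nuclei all alternatives kept the direction, and the adjusted p from edgeR or DESeq2 was never below 0.635. Astrocyte-like libraries were apart in 12 of 14 alternatives. Here too, those with libraries left out could hardly give overlap. The alternatives that formed the classes anew, at the coarser clustering and nucleus by nucleus, did give overlap. In the sum of the 6 other classes the values without 1 library ran from -0.68 to -0.02. The count of members called stayed at 0 in 16 of 16 alternatives, as did that of fatty acid oxidation genes in OPC-like and oligodendrocyte-like nuclei. Without a filter on low counts 1 neighbour gene was called, SLC1A7. The sign of small fold changes was not stable: SLC25A20 in OPC-like nuclei changed sign in 6 of 15 alternatives and CPT1A there in 5 of 16.

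Each thinned share below came from 1 random draw. The difference in the percent of nuclei with a CPT2 UMI, OVT73 minus control, was -2.48 points in OPC-like nuclei at 1000 UMIs per nucleus, -1.21 at 500, -3.27 at 2000 and -5.39 without thinning, and ran from -2.81 to -2.22 with 1 library left out. In oligodendrocyte-like nuclei it was -1.41, and -1.82 at 2000 UMIs and -1.99 without thinning. In astrocyte-like nuclei it was -0.27, and 0.273 at 500, -3.44 at 2000 and -2.61 without thinning; it ran from -1.07 to 0.593 with 1 library left out, positive without control library 6 (0.593) or OVT73 library 7 (0.309). No paired analysis was possible because the labels give the libraries no shared replicate numbers. Equal numbers of nuclei gave no CPT2 value in astrocyte-like nuclei, and the coarser clustering gave no PV/Th interneuron-like class. With 415 CRAT UMIs in all, differences in CRAT outside the MSN classes were not detectable at this depth by the fit across genes.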

Other observations

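Outside the named classes, CPT2 was also counted in clusters left unnamed. In cluster 9, led by DTHD1 and GPC3, CPT2 held 26 UMIs in 750 OVT73 nuclei and 30 UMIs in 435 control nuclei, which is 14.5 and 30.2 CPM of the summed UMIs. The libraries ranged from 7.48 to 33.8 CPM in OVT73 and from 6.04 to 43.9 in control and so overlapped. The best match of cluster 9 was the astrocyte list, with the same 6 markers raised as in the astrocyte-like class. Its nuclei are not part of the astrocyte-like values above. In cluster 16, led by FOXP2 and ALK, CPT2 held 7 UMIs in 179 OVT73 nuclei and 15 in 140 control nuclei, counts that pool the libraries of a group. The libraries ranged from 0.887 to 1.81 CPM in OVT73 and from 1.44 to 8.45 in control and so overlapped. Of the 15 control UMIs, 8 came from control library 4.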
